A study of Mus musculus with 28 samples.

Results

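The nuclear genes for the subunits of the mitochondrial respiratory chain and ATP synthase were followed by complex in sorted cells of the embryonic mouse vertebral column. Members were taken by gene symbol: *Ndufa*, *Ndufb*, *Ndufc*, *Ndufs* or *Ndufv* with a number and *Ndufab1* for complex I, *Sdha* to *Sdhd* for complex II, *Cyc1* and symbols that start with *Uqcr* for complex III, *Cox4i*, *Cox5*, *Cox6*, *Cox7* and *Cox8* genes for complex IV, and *Atp5* genes for complex V. The array held 79 members among 19057 genes, with 122 probes: 35 in complex I, 4 in II, 8 in III, 16 in IV and 16 in V. Of these, 76 had a probe that was detected on at least 3 arrays and entered the fits of 13373 genes. The 3 that did not, *Cox6a2*, *Cox8b* and *Cox8c*, belong to complex IV, and 71 members were detected on all 28 arrays.

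Complex I takes electrons from NADH and complex II takes them from succinate, and both pass them through ubiquinone to complex III, cytochrome c and complex IV, where oxygen is reduced. Complexes I, III and IV pump protons out of the matrix, and complex V (ATP synthase) makes ATP as they flow back. All subunits of complex II are nuclear, whereas the core of the other complexes is encoded partly in mitochondrial DNA, so that nuclear and mitochondrial transcripts have to be made together. Embryonic mesenchyme that is about to form cartilage lies in tissue with few vessels and relies largely on glycolysis.

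The cells came from E12.5 vertebral columns, in a study of how the transcription factors *Pax1* and *Pax9* act in the forming intervertebral disc. EGFP(+) cells were sorted from *Pax1-/-Pax9-/-* (3 arrays), *Pax1-/-Pax9+/-* (3), *Pax1-/-* (8), *Pax1+/-* (5) and *Pax1 WT:+/EGFP* embryos (6), together with EGFP(-) cells (3). The *Pax1* null allele carries EGFP in the exon of the paired box, the *Pax9* null allele carries EGFP in its second exon, and *Pax1 WT:+/EGFP* carries EGFP behind a self-cleaving F2A peptide, which leaves a working *Pax1* gene. All EGFP(+) cells thus carried EGFP, on a mixed 129Sv and C57BL/6 background, the sort gate followed the activity of the *Pax* loci, and *Pax9*-driven EGFP was present only in the compound mutants. No genotype is labelled for the EGFP(-) cells, and the paper sets EGFP(+) beside EGFP(-) cells for *Pax1 WT:+/EGFP*, *Pax1+/-* and *Pax1-/-* alike, so their genotype is not known here. Each replicate pooled the sorted cells of 2 vertebral columns, and the RNA was amplified before hybridization. Arrays of 1 genotype with the same replicate name were averaged, giving n = 5 for *Pax1-/-*, *Pax1+/-* and *Pax1 WT:+/EGFP* and n = 3 elsewhere. Nothing in the labels ties a replicate name to separate litters, and p-values measure the spread between these samples.

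The arrays lay on 5 BeadChips, whose serial numbers fall in 2 runs, called series B (chips 1 and 2) and series A (chips 3, 4 and 5). All 6 arrays of the compound mutants lay on chip 1, while *Pax1-/-* and *Pax1 WT:+/EGFP* were in both series and *Pax1+/-* and EGFP(-) cells only in series A. Between 42.2% and 44.2% of all probes were detected on series B arrays, and between 45.4% and 50.6% on series A arrays. The sclerotome genes *Pax1*, *Pax9*, *Nkx3-2*, *Meox1*, *Foxc2*, *Sox9* and *Uncx* were all measured, with a summed linear level of 5413 to 5481 in *Pax1-/-Pax9-/-* cells, 6172 to 6839 in *Pax1-/-Pax9+/-* cells, 5199 to 6339 in *Pax1-/-* cells, 5318 to 5950 in *Pax1+/-* cells, 5289 to 6907 in *Pax1 WT:+/EGFP* cells and 1010 to 2130 in EGFP(-) cells. Calls required a fold change of at least 1.5 and, over all 13373 genes, a p under 0.05 after Benjamini-Hochberg adjustment. Shares of all genes are shares of such calls. Counts of members at an unadjusted limma p under 0.05 have no such share beside them and cannot be read as particular to the members. A level is the normalized log2 intensity, and a difference of 1 in it is a 2-fold change. Fewer cells of a type and less RNA per cell cannot be told apart in such bulk samples.

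Promoter sequences show what several members share beyond their function. RefSeq promoters (build GRCm38.p6, 300 bases, from 250 before to 50 after the start) were found for 65 of the 79 members, 70 promoters in all. The NRF1 motif GCGCANGCG was in 28.6% of these promoters and in 6.25% of all 32851 promoters. The ETS motif CCGGAAG, bound by GABPA among others, was in 22.9% of the member promoters and 8.86% of all, and the YY1 motif AANATGGCG in 14.3% and 2.38%. Both strands were searched, matches of different motifs may overlap, and a match is a description, not a binding site. Of the members later called lower in *Pax1-/-Pax9+/-* against *Pax1-/-* cells, 14 of 20 with a promoter held at least one of the motifs, against 23 of 44 of the members not called, with no test made. The promoters of 4 members whose levels are followed below are given 5′ to 3′ in the direction of the gene, with the ETS match (CCGGAAG or its reverse complement) in capitals. They are shown because each holds 1 ETS match and none of the other motifs. Counted from the start of the gene, the match begins at -20 in *Ndufb7* (chr8:83566508-83566807, plus strand), -10 in *Uqcrh* (chr4:116075021-116075320, minus), -28 in *Cox6b1* (chr7:30626065-30626364, minus) and -102 in *Atp5e* (chr2:174464052-174464351, minus).
Ndufb7: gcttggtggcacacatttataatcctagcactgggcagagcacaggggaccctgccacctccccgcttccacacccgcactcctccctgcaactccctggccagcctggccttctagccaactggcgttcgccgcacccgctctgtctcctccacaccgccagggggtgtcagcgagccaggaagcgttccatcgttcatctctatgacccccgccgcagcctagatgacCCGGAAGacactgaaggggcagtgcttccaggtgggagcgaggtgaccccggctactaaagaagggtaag
Uqcrh: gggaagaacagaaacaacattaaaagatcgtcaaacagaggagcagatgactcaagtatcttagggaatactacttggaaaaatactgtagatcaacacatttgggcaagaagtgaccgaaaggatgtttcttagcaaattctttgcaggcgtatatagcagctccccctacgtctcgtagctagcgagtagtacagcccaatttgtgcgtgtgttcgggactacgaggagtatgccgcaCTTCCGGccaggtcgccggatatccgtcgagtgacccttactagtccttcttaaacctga
Cox6b1: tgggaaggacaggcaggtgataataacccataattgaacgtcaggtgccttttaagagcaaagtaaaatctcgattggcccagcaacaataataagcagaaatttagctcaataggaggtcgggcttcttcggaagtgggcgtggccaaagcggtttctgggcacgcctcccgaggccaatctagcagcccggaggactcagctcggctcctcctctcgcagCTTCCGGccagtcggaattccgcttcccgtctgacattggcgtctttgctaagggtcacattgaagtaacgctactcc
Atp5e: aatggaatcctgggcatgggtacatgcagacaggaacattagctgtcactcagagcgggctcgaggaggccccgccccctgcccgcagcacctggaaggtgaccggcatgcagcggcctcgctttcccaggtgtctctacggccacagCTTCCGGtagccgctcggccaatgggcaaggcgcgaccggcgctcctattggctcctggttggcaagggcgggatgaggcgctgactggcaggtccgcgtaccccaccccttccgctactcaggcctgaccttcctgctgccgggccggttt

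In *Pax1-/-Pax9-/-* cells 13 of the 76 members were lower than in *Pax1 WT:+/EGFP* cells and none was higher, where 3.54% of all genes were called lower and 3.32% higher. The calls were spread over complex I (5 of 35), III (3 of 8), IV (2 of 13) and V (3 of 16), and none of the 4 complex II genes was called. The median log2 fold change of the members was -0.22, beside 0.00 over all genes, and by complex it was -0.22 for I, 0.06 for II, -0.31 for III, -0.25 for IV and -0.18 for V. Levels of 19 members in all *Pax1-/-Pax9-/-* replicates lay below all *Pax1 WT:+/EGFP* replicates, and 1 lay above, while 6.66% and 6.48% of all genes did so. With chip as a random block 2 members were called (0.875% of all genes lower), and with chip series as a fixed block 1 (0.74%). Both of these fits took each array as its own sample, so the block was not the only change. With the compared genotypes fitted alone 0 members were called, and without *Pax1-/-Pax9-/-* B3 there were 8. No share of all genes is given for the fit of the compared genotypes alone or the one without B3. A change particular to the members cannot be read from these counts.

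**Figure D1:**
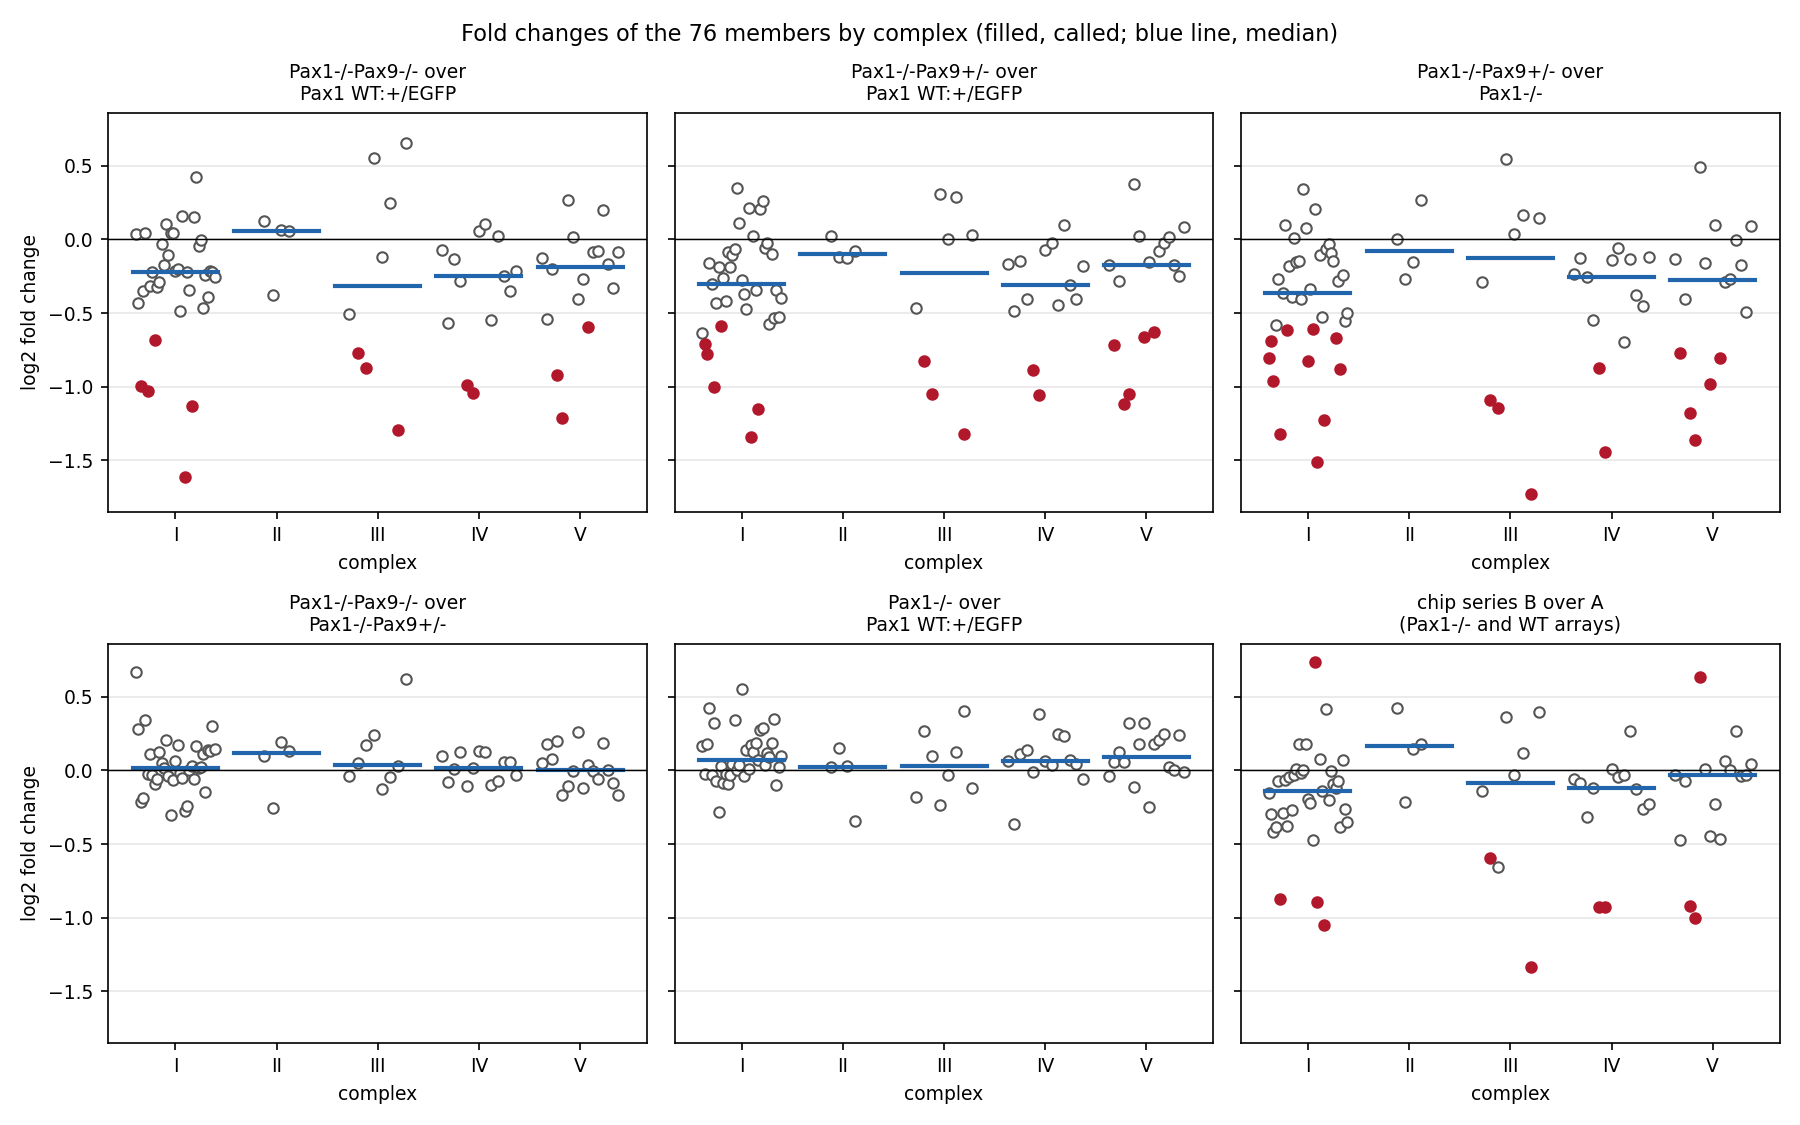
Log2 fold change (vertical axis) of each of the 76 members by complex (horizontal axis) in 5 comparisons of genotypes and in the comparison of chip series. Filled points were called and blue lines are medians, and the called members lie below 0 in the first 3 panels, with no called member in complex II.

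Of complex I, *Ndufb7*, an accessory subunit of the membrane arm, showed the largest fall. Its levels were 6.41, 6.37 and 5.72 in *Pax1-/-Pax9-/-* replicates, against 8.18, 8.20, 8.07, 7.77 and 6.67 in *Pax1 WT:+/EGFP* replicates. All mutant values lay below all others, and the lowest *Pax1 WT:+/EGFP* value, B7, came from chip 2. The log2 fold change was -1.62 ± 0.28 (SE), a fold of 3.06, with an adjusted p of 0.0015 in limma. The other called genes of complex I were the accessory subunits *Ndufa5* (-0.68), *Ndufa2* (-1.03), *Ndufa11* (-1.0) and *Ndufc1* (-1.13). *Ndufa2* was at 8.88, 8.46 and 8.57 in *Pax1-/-Pax9-/-* cells and at 8.89 in *Pax1 WT:+/EGFP* B7, with the other *Pax1 WT:+/EGFP* replicates at 9.58 or above. Of these, B5, at 9.58, was the mean of 8.73 on chip 2 and 10.42 on chip 4.

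Complex III had its 3 calls among the small subunits around the cytochrome core. *Uqcrh*, the hinge protein that helps cytochrome c1 dock cytochrome c, was at 9.75, 9.53 and 9.63 in *Pax1-/-Pax9-/-* cells, against 11.59, 11.35, 11.42, 10.63 and 9.68 in *Pax1 WT:+/EGFP* cells. The groups overlapped through B7, and B5, at 10.63, was the mean of 2 unlike arrays. Its log2 fold change of -1.29 ± 0.31 had an adjusted p of 0.013. *Uqcr11* (-0.87) and *Uqcr10* (-0.77) were also called. *Uqcrc1*, a core subunit, pointed the other way without passing the fold threshold (0.55, adjusted p = 0.044), and *Uqcrq* had the largest positive value of the members (0.65, adjusted p = 0.33).

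Of complex IV the subunits *Cox6b1*, which faces the intermembrane space, and *Cox6a1*, the widely expressed form of subunit VIa, were called. *Cox6b1* was at 9.75, 9.20 and 9.44 in *Pax1-/-Pax9-/-* cells and at 10.86, 10.90, 10.84, 10.28 and 9.64 in *Pax1 WT:+/EGFP* cells. Of the replicates only B7 fell within the mutant range, and the fold was 2.06 (adjusted p = 0.010). B5, at 10.28, was the mean of 9.62 on chip 2, also within that range, and 10.94 on chip 4. *Cox6a1* differed by a fold of 1.99 with no overlap of replicates (adjusted p = 0.011). Its chip 2 array of *Pax1 WT:+/EGFP* B5, at 8.69, lay below the highest mutant, at 8.82.

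Complex V was represented by the small F1 subunit *Atp5e* and the F1 subunit *Atp5d*, both in the central stalk, and by *Atp5j2* of the membrane sector. *Atp5e* was at 9.53, 9.01 and 9.27 in *Pax1-/-Pax9-/-* cells and at 10.82, 10.87, 10.93, 10.33 and 9.45 in *Pax1 WT:+/EGFP* cells. B7 again lay among the mutants, and the fold was 2.32 (adjusted p = 0.0052). B5 was the mean of 9.49 on chip 2, also among the mutants, and 11.18 on chip 4. Replicates of *Atp5d* (fold 1.89) and *Atp5j2* (fold 1.51) did not overlap. For *Atp5d*, *Pax1 WT:+/EGFP* B5 was the mean of 7.52 on chip 2, below all mutants, and 9.46 on chip 4.

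**Figure D2:**
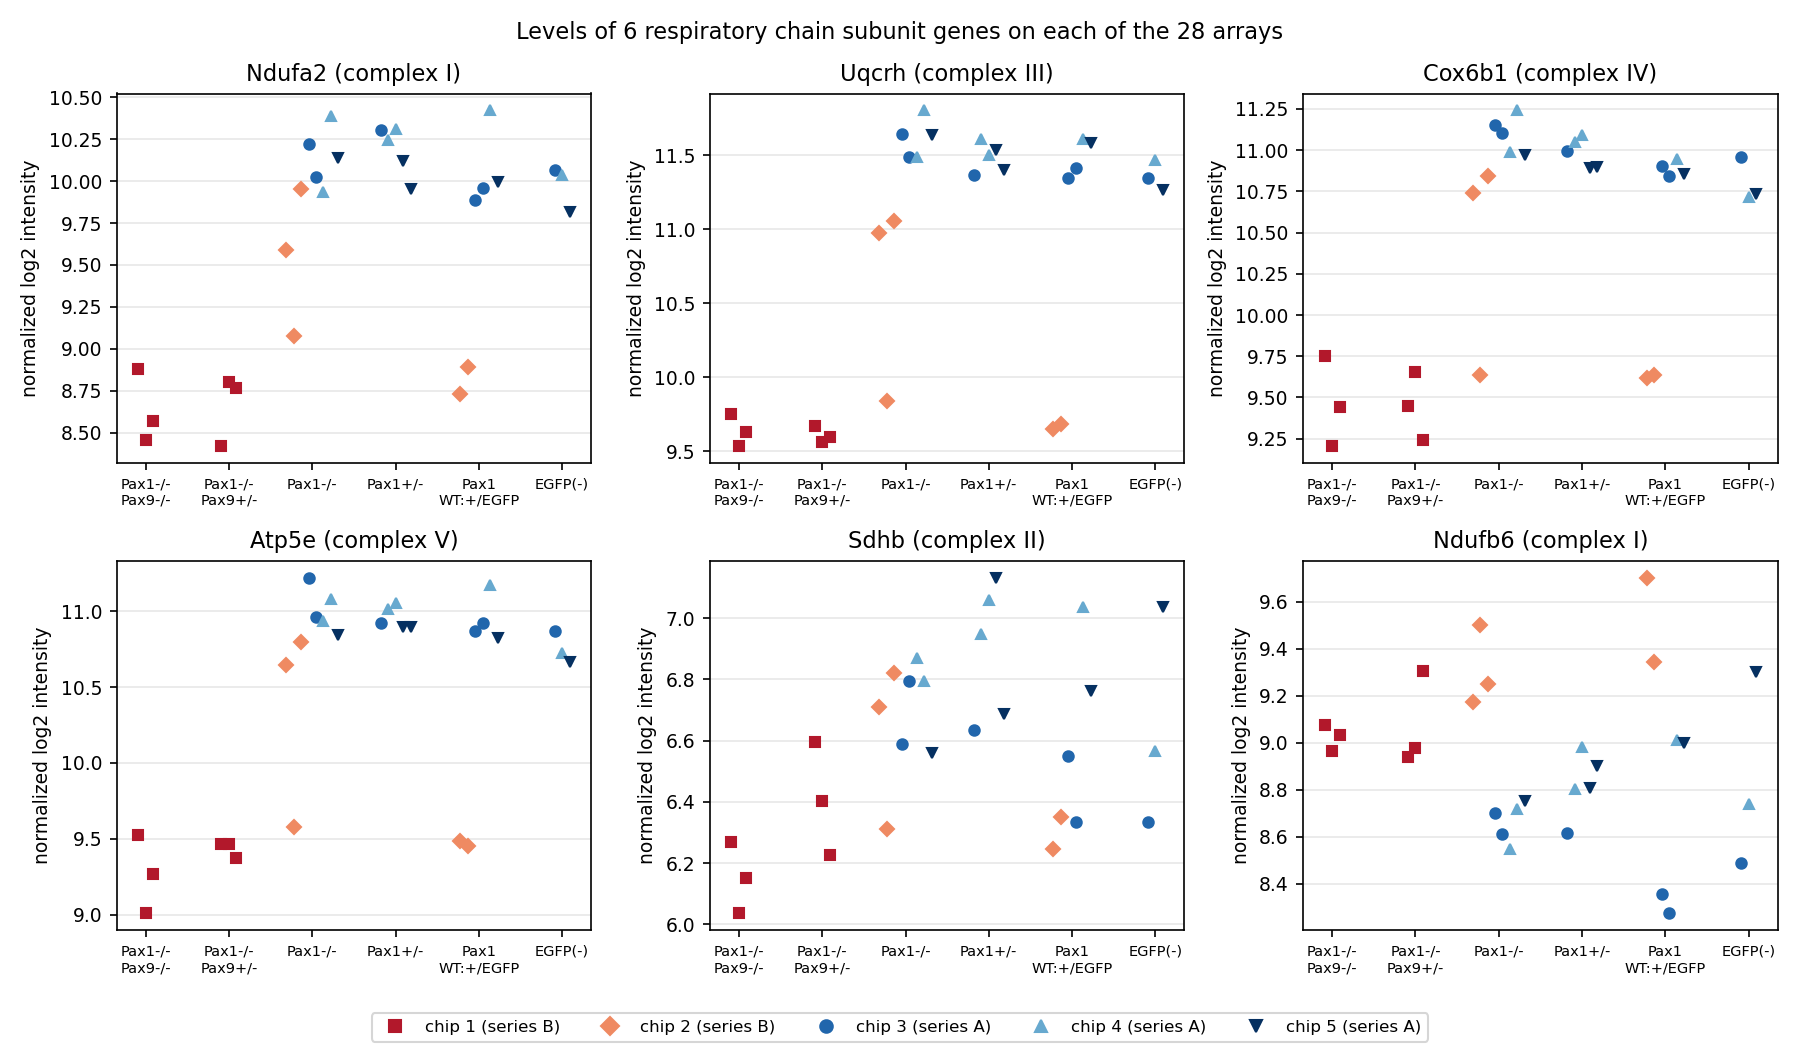
Normalized log2 intensity (vertical axis) of 6 members on each of the 28 arrays, by sorted group (horizontal axis), with the chip given by symbol and colour. *Ndufa2*, *Uqcrh*, *Cox6b1* and *Atp5e* are low on chip 1 and on 3 arrays of chip 2 (2 *Pax1 WT:+/EGFP* and 1 *Pax1-/-*), and *Ndufb6* is higher on chip 2 than on the series A arrays of the same genotypes.

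The cells with 1 remaining copy of *Pax9* were set against the same *Pax1 WT:+/EGFP* arrays. In *Pax1-/-Pax9+/-* against *Pax1 WT:+/EGFP* cells 16 members were called lower and none higher, beside 2.33% and 2.45% of all genes. By complex these were 6 of 35 in I, 0 of 4 in II, 3 of 8 in III, 2 of 13 in IV and 5 of 16 in V, and the median over the members was -0.22. No call was left with chip as a random block (0.0374% of all genes lower) or with chip series as a fixed block, each array being its own sample. Their lowest values were those of *Ndufb7* (-1.34 ± 0.28, adjusted p = 0.0094) and *Uqcrh* (-1.32 ± 0.31, adjusted p = 0.018), and *Uqcr11* had the smallest p (-1.05 ± 0.18, adjusted p = 0.0048). *Uqcrh* was at 9.67, 9.56 and 9.60 in *Pax1-/-Pax9+/-* cells, just below the 9.68 of *Pax1 WT:+/EGFP* B7. *Ndufa2*, *Ndufc1*, *Ndufa5*, *Ndufa10*, *Ndufa11*, *Uqcr10*, *Cox6b1*, *Cox6a1*, *Atp5d*, *Atp5j2*, *Atp5e*, *Atp5h* and *Atp5b*, the catalytic beta subunit of ATP synthase, made up the rest. The largest positive value, 0.38 for *Atp5g2*, one of the genes for subunit c of the rotor ring, was not called. No member was called when the compared groups were fitted alone, and between 4 (without *Pax1-/-Pax9+/-* B3) and 20 when single replicates were left out. It was 10 without *Pax1-/-Pax9+/-* B1 and 8 without B2. These counts too stand without a share of all genes.

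The compound mutants, which lay on the same chip, were then set against each other to ask what loss of the last *Pax9* copy adds. No member was called in *Pax1-/-Pax9-/-* against *Pax1-/-Pax9+/-* cells by limma, 3 were higher at an unadjusted p under 0.05, and 0.314% of all genes were called. The median over the members was 0.02. The largest differences were those of *Ndufa1* (0.67 ± 0.27, adjusted p = 0.46) and *Ndufb11* (-0.30 ± 0.22, adjusted p = 0.83). *Pax9* itself had a log2 difference of -1.23 (adjusted p = 0.25).

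Against *Pax1-/-* cells, which share the loss of *Pax1*, *Pax1-/-Pax9+/-* cells had 21 members lower and none higher, where 4.27% and 3.87% of all genes were called. With chip as a random block 12 were lower (1.54% of all genes), and with chip series as a fixed block 0, each array being its own sample. Here 11 of 35 in complex I, 3 of 8 in III, 2 of 13 in IV and 5 of 16 in V were called, and again none in II. The median was -0.28, and it was -0.36 for I, -0.08 for II, -0.12 for III, -0.26 for IV and -0.28 for V. In 40 members all *Pax1-/-Pax9+/-* replicates lay below all *Pax1-/-* replicates, and in 2 above, beside 1673 and 1550 of the 13373 genes.

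*Uqcrh* gave the largest difference, at 9.67, 9.56 and 9.60 in *Pax1-/-Pax9+/-* cells against 11.64, 11.31, 10.66, 11.27 and 11.80 in *Pax1-/-* cells. The replicates did not overlap, the fold was 3.31 and the adjusted p 0.0023 in limma. *Pax1-/-* B3, at 10.66, was the mean of 9.84 on chip 2 and 11.49 on chip 3. *Cox6b1* was at 9.45, 9.65 and 9.24 in *Pax1-/-Pax9+/-* cells, against 10.97, 10.95, 10.37, 10.92 and 11.24 in *Pax1-/-* cells (fold 2.72, adjusted p = 0.0018). Its B3 value of 10.37 was the mean of 9.63 on chip 2, below the highest *Pax1-/-Pax9+/-* value, and 11.11 on chip 3. Members of complex I that were called here included *Ndufs6* (-0.67) and *Ndufs8* (-0.88), which carries iron-sulfur clusters in the peripheral arm, besides *Ndufa2* (-1.32) and *Ndufb7* (-1.51). *Ndufb7* was at 6.78, 6.44 and 6.10 in *Pax1-/-Pax9+/-* cells, against 7.92, 7.99, 7.55, 8.03 and 8.25 in *Pax1-/-* cells, with a gap between the replicates. The chip 2 array of *Pax1-/-* B3 was at 7.09. *Ndufs6* was at 8.27, 8.39 and 8.28 in *Pax1-/-Pax9+/-* cells, and its *Pax1-/-* replicates lay between 8.88 and 9.19.

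In complex V *Atp5e* was at 9.46, 9.46 and 9.38 in *Pax1-/-Pax9+/-* cells, against 10.84, 10.94, 10.27, 10.87 and 11.08 in *Pax1-/-* cells (fold 2.58, adjusted p = 0.0025). *Pax1-/-* B3, the lowest of its group, had 1 of its 2 arrays on chip 2. *Atp5b* was at 10.35, 10.54 and 10.09 in *Pax1-/-Pax9+/-* cells, against 11.08, 11.06, 10.91, 11.17 and 11.28 in *Pax1-/-* cells (fold 1.71), without overlap of replicates. The chip 2 array of *Pax1-/-* B3, at 10.50, lay below the highest *Pax1-/-Pax9+/-* value. *Uqcrc1* was again positive (0.54, adjusted p = 0.041). The called members spanned a median of 6487 bases of the genome and those not called 7798, with wide overlap.

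Complex II, with only 4 genes, had no call in any comparison. *Sdhb*, the iron-sulfur subunit, was at 6.27, 6.04 and 6.15 in *Pax1-/-Pax9-/-* cells, against 6.76, 6.55, 6.33, 6.64 and 6.35 in *Pax1 WT:+/EGFP* cells, below without overlap of replicates but not called (-0.37 ± 0.14, adjusted p = 0.085). The chip 2 array of *Pax1 WT:+/EGFP* B5, at 6.25, lay below the highest mutant value. *Sdha*, the flavoprotein, and the membrane anchors *Sdhc* and *Sdhd* overlapped, with log2 differences of 0.12, 0.06 and 0.05. *Sdhb* was read by 3 probes that disagreed, from -1.10, which was called lower as a single probe, to 0.12. Whether complex II differs from the others was not tested. *Sdhb*, *Sdhc* and *Sdhd* were chosen after their values were seen.

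**Figure D3:**
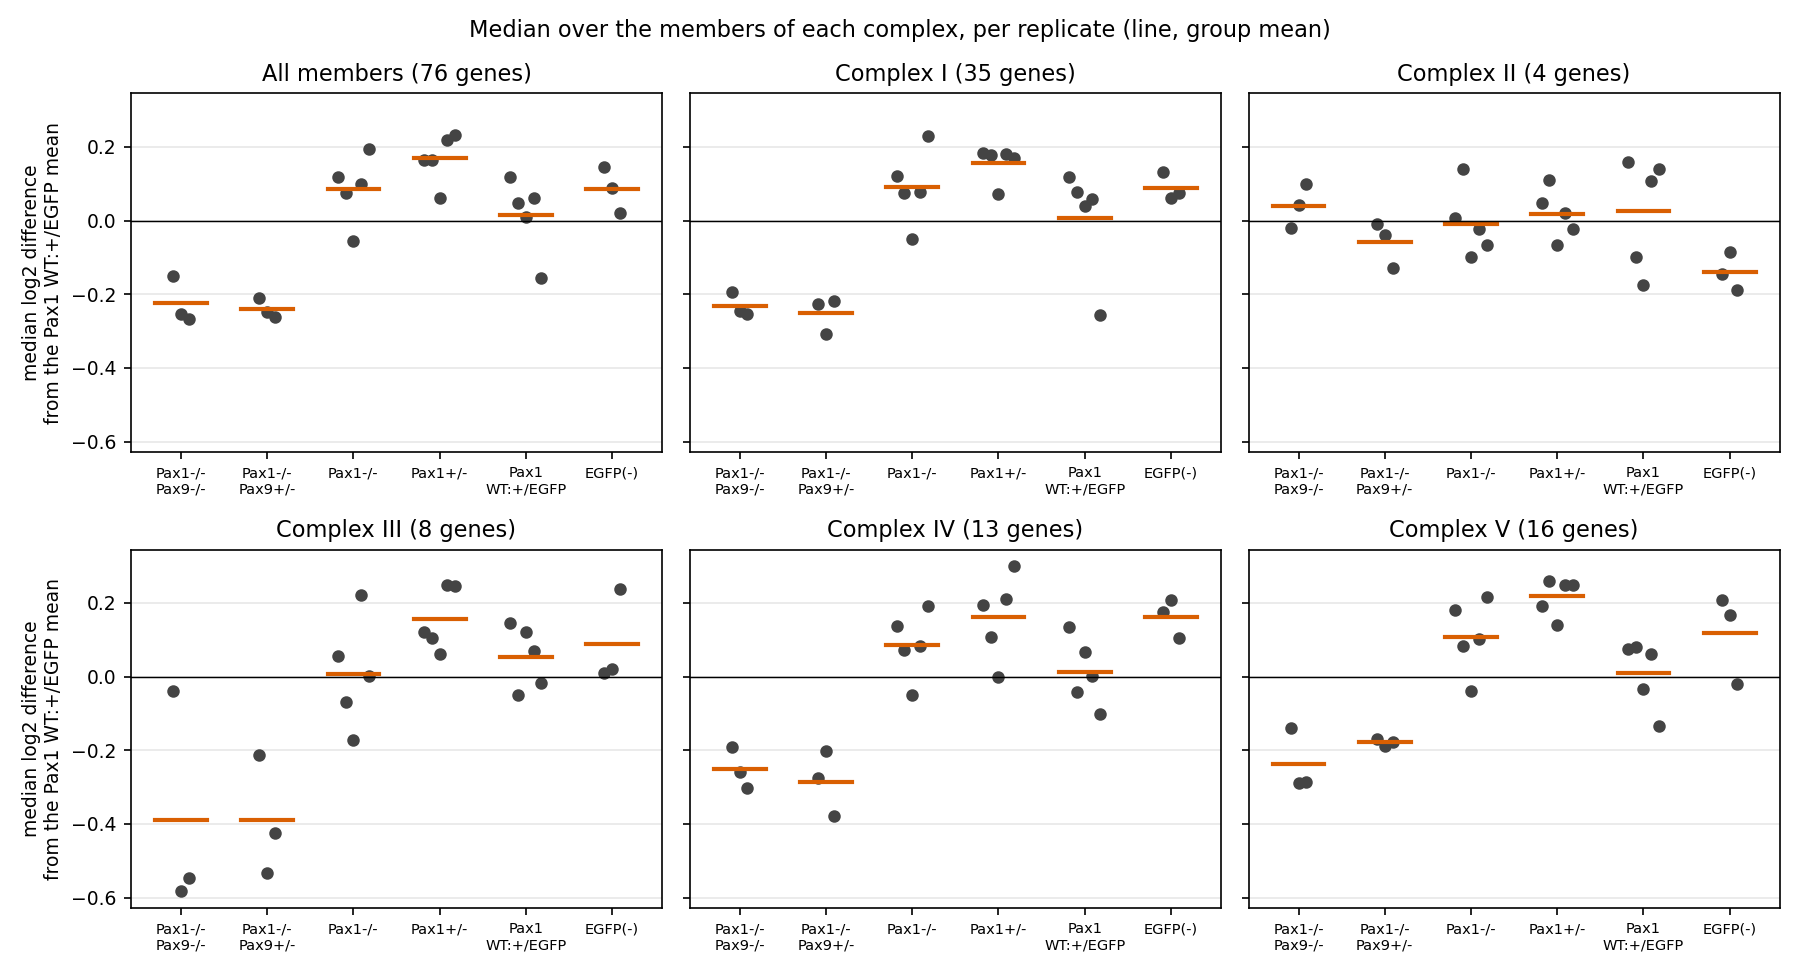
Median over the members of each complex of the log2 difference from the *Pax1 WT:+/EGFP* mean (vertical axis), 1 point for each replicate, by sorted group (horizontal axis), with the group mean as a line. The 3 replicates of each compound mutant lie below 0 in complexes I, III, IV and V. *Pax1 WT:+/EGFP* B7 lies among them in complex I and over all members. In complex III *Pax1 WT:+/EGFP* B3 lies just below the highest *Pax1-/-Pax9-/-* replicate.

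Loss of *Pax1* alone gave no call. In *Pax1-/-* against *Pax1 WT:+/EGFP* cells limma called 0 members, with 3 lower and 9 higher at an unadjusted p under 0.05, where 0.247% of all genes were called in either direction, and the median was 0.06. The ends of the range were *Ndufb3* (0.55 ± 0.18, adjusted p = 0.25) and *Cox4i2* (-0.36 ± 0.16, adjusted p = 0.46), which was detected on only 2 of 8 and 3 of 6 arrays of these genotypes. In *Pax1+/-* cells the median was 0.16, and 0 members and 0.419% of all genes were called. At an unadjusted p under 0.05, 25 members were higher and 1 lower, with no share of all genes counted at that threshold. *Uqcrh* had the largest value there (0.55 ± 0.27, adjusted p = 0.36) and *Atp5a1* the lowest (-0.21 ± 0.09, adjusted p = 0.30). On series A arrays alone, where both genotypes are found, the median of *Pax1+/-* over *Pax1 WT:+/EGFP* was 0.08 and that of *Pax1-/-* 0.00.

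The sort was examined next. *Pax1 WT:+/EGFP* against EGFP(-) cells gave 0 called members by limma, with 10 lower and 3 higher at an unadjusted p under 0.05, although 16.4% of all genes were called. The median over the members was -0.06, beside 0.06 over all genes. *Cox5a*, a subunit on the matrix side of complex IV, had the smallest adjusted p (0.0040) at a log2 difference of -0.57, a fold just under the threshold, and *Sdha* the largest positive value (0.54, adjusted p = 0.077). Other cell types had lower markers in these EGFP(+) cells, with 5 of 6 measured erythroid, 7 of 8 macrophage, 7 of 7 endothelial, 7 of 9 neuronal and 3 of 8 skeletal muscle genes called.

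The summed linear levels of these marker lists also varied between the EGFP(+) groups. Erythroid sums were 1043 to 1228 in *Pax1-/-Pax9-/-* cells, 1162 to 5923 in *Pax1-/-Pax9+/-* cells, 1759 to 5286 in *Pax1-/-* cells, 236 to 3202 in *Pax1+/-* cells and 503 to 5787 in *Pax1 WT:+/EGFP* cells, against 24938 to 28110 in EGFP(-) cells. The median log2 difference of the 6 measured erythroid genes was -1.11 in *Pax1-/-Pax9-/-* and -1.63 in *Pax1+/-* against *Pax1 WT:+/EGFP* cells, where the members' medians were -0.22 and 0.16. *Slc4a1*, the red cell anion exchanger, was lower in *Pax1-/-Pax9-/-* than in *Pax1 WT:+/EGFP* cells (-2.47, adjusted p = 0.048). Skeletal muscle sums were 785 to 935 in *Pax1-/-Pax9-/-* cells, 544 to 586 in *Pax1-/-Pax9+/-* cells, 869 to 1567 in *Pax1-/-* cells, 499 to 897 in *Pax1+/-* cells and 535 to 1557 in *Pax1 WT:+/EGFP* cells. Muscle is rich in mitochondria, and the median difference of its 8 measured markers was 0.10 in *Pax1-/-Pax9-/-* against *Pax1 WT:+/EGFP* cells. Of them only *Mylpf*, a myosin light chain, was called, and it was lower (-1.32, adjusted p = 0.036), while others reached up to 0.91. *Mylpf* and the troponins *Tnnc1* and *Tnnt1* were lower in *Pax1-/-Pax9+/-* than in *Pax1-/-* cells (-1.86, -1.47 and -1.06). Macrophage sums were 482 to 650 in *Pax1-/-Pax9-/-* cells, 317 to 808 in *Pax1-/-Pax9+/-* cells, 362 to 726 in *Pax1-/-* cells, 220 to 374 in *Pax1+/-* cells and 207 to 502 in *Pax1 WT:+/EGFP* cells. Endothelial sums were 531 to 668 in *Pax1-/-Pax9-/-* cells, 250 to 393 in *Pax1-/-Pax9+/-* cells, 355 to 584 in *Pax1-/-* cells, 202 to 346 in *Pax1+/-* cells and 199 to 326 in *Pax1 WT:+/EGFP* cells. The angiopoietin receptor *Tek* was higher in *Pax1-/-Pax9-/-* than in *Pax1 WT:+/EGFP* cells (2.75), and *Esam* was lower in *Pax1-/-Pax9+/-* than in *Pax1-/-* cells (-1.05, adjusted p = 0.021). Neuronal sums were 1039 to 1302 in *Pax1-/-Pax9-/-* cells, 1007 to 1183 in *Pax1-/-Pax9+/-* cells, 1020 to 1347 in *Pax1-/-* cells, 917 to 1149 in *Pax1+/-* cells and 934 to 1414 in *Pax1 WT:+/EGFP* cells. The part of these cells in the members' levels was not tested.

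The chips were compared within the genotypes that lay in both series. On *Pax1-/-* and *Pax1 WT:+/EGFP* arrays, with genotype in the fit, 9 members were lower in series B than in series A and 2 were higher, where 2.03% and 3.59% of all genes were called, and the median was -0.09. *Uqcrh* was the most different (-1.34 ± 0.19, adjusted p = 5.4e-04), followed by *Ndufc1* (-1.05), *Atp5e* (-1.0), *Cox6a1* (-0.93), *Cox6b1* (-0.93), *Atp5d* (-0.92), *Ndufb7* (-0.89), *Ndufa2* (-0.87) and *Uqcr10* (-0.59). Each array was its own sample in this fit, although some replicate names lay in both series, so its p-values ignore that pairing. With genotype and replicate name together as a block, which rests on the names found in both series, no call was left. The comparison shares its *Pax1 WT:+/EGFP* and *Pax1-/-* arrays with those above. The members higher in series B were *Ndufb6* (0.73) and *Atp5g2* (0.64).

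Arrays of 1 genotype differed between and within chips. *Uqcrh* stood at 9.65 (B5) and 9.68 (B7) on the *Pax1 WT:+/EGFP* arrays of chip 2, and at 11.35, 11.42, 11.61 and 11.59 on those of chips 3 to 5. The *Pax1-/-* arrays of chip 2 had 11.05 (B4), 10.97 (B2) and 9.84 (B3), and those of series A had 11.49 to 11.80. Thus 3 of the 5 arrays of chip 2 lay near the compound mutants, at 9.53 to 9.75, and the other 2 lay between these and series A. For the same replicate name, *Pax1 WT:+/EGFP* B5, the difference of chip 2 minus chip 4 was -1.96 for *Uqcrh*, -1.69 for *Atp5e* and -1.33 for *Cox6b1*, and 60 of the 76 members were lower. For *Pax1-/-* B3 the 3 genes differed by -1.65, -1.39 and -1.47, for B2 by -0.67, -0.57 and -0.41, and for B4 by -0.44, -0.14 and -0.15.

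**Figure D4:**
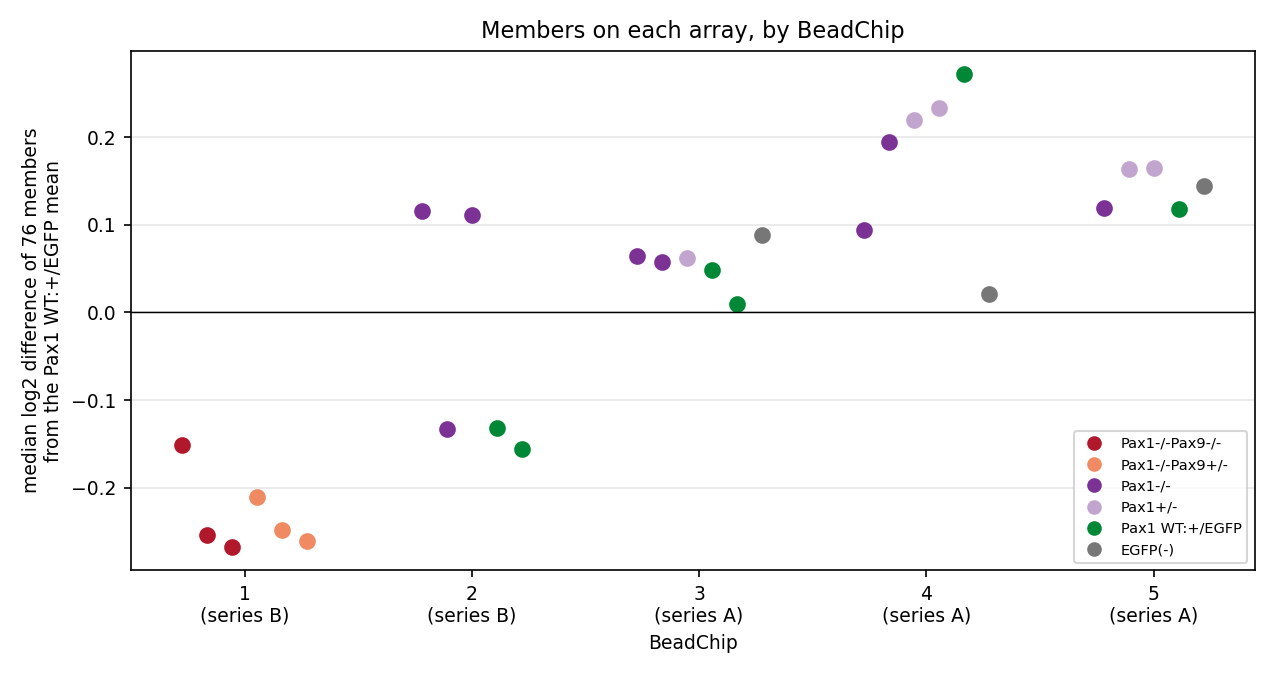
Median over 76 members of the log2 difference from the *Pax1 WT:+/EGFP* mean (vertical axis), 1 point for each array, by BeadChip (horizontal axis) and coloured by sorted group. All arrays of chip 1 and 3 arrays of chip 2 lie below 0, and all arrays of chips 3, 4 and 5 lie above it.

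The difference between series was -0.23 at the median member in *Pax1 WT:+/EGFP* arrays (12 members and 3.84% of all genes called lower) and -0.06 in *Pax1-/-* arrays (1 member and 0.254%). For the difference between the genotypes 0 members and 1 of all genes were called. At an unadjusted p under 0.05 there were 13 members, with no share of all genes counted. In *Pax1 WT:+/EGFP* arrays 32 members had all of series B below all of series A and 6 above, beside 16.9% of all genes in each direction. In *Pax1-/-* arrays 10 were below and 3 above, beside 4.91% and 6.34% of all genes.

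With the chip series as a block, each array was its own sample, so replicate names found in both series counted more than once. Fewer calls than in the main fit are therefore not due to the block alone. In *Pax1-/-Pax9-/-* against *Pax1 WT:+/EGFP* cells 1 member was then called lower, *Ndufb7* (-1.02 ± 0.24, adjusted p = 0.024), where 0.74% of all genes were. For *Pax1-/-Pax9+/-* cells none was called, either against *Pax1 WT:+/EGFP* cells (0.0374% of all genes) or against *Pax1-/-* cells (0.0823%). At an unadjusted p under 0.05, 16 and 30 members were lower and 1 higher in each, with no share of all genes counted at that threshold. The medians were then -0.16, -0.22 and -0.26, and 65, 63 and 64 of the 76 members were below 0. On series B arrays alone the medians were -0.08, -0.13 and -0.26, and no member was called. *Uqcrh* then differed by -0.03 ± 0.30, -0.06 ± 0.30 and -1.01 ± 0.26. With chip 2 left out, a choice made after seeing the data, the compound mutants were set against series A arrays alone. Then 19 members were lower and 1 higher in *Pax1-/-Pax9-/-* against *Pax1 WT:+/EGFP* cells, beside 7.24% and 7.34% of all genes. In *Pax1-/-Pax9+/-* cells 21 were lower and 0 higher against *Pax1 WT:+/EGFP* cells (6.45% and 6.51% of all genes), and 22 lower and 2 higher against *Pax1-/-* cells (6.6% and 6.39%). For chip 1 against the rest, chip and genotype cannot be told apart.

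Tissue forms of complex IV subunits were told apart by their probes. *Cox4i1*, *Cox6a1*, *Cox6b1* and *Cox7a2*, the widely expressed forms, were detected on all 28 arrays. The muscle forms *Cox6a2* and *Cox8b* and the testis form *Cox8c* were detected on none. *Cox7a1*, known from heart and skeletal muscle, was detected on 21 arrays, with 0 of 3 *Pax1-/-Pax9-/-* arrays, 1 of 3 *Pax1-/-Pax9+/-* arrays, 7 of 8 *Pax1-/-* arrays, 5 of 5 *Pax1+/-* arrays, 5 of 6 *Pax1 WT:+/EGFP* arrays and 3 of 3 EGFP(-) arrays, and *Pax1-/-* B1 stood alone at 7.04. *Cox4i2*, the lung and hypoxia form, was detected on 7 arrays, none of them of compound mutants. *Cox6b2*, the testis form, was detected on 24 arrays at levels of 4.71 to 5.74. *Cox4i1* and *Cox7a2* were called in no comparison.

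Several members had more than 1 probe. Of 28 with several kept probes, 8 had at least 1 probe called lower in *Pax1-/-Pax9-/-* against *Pax1 WT:+/EGFP* cells and 5 of these had all probes called lower, and no member had probes called in opposite directions. Signs of the probes differed in 17 of the 28, 9 in *Pax1-/-Pax9+/-* against *Pax1-/-* cells.

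Genes of related processes were counted by lists. Of 72 mitochondrial ribosomal protein genes, 5 were lower in *Pax1-/-Pax9-/-* against *Pax1 WT:+/EGFP* cells, 9 in *Pax1-/-Pax9+/-* against these and 20 in *Pax1-/-Pax9+/-* against *Pax1-/-* cells, with none higher, beside the 3.54%, 2.33% and 4.27% of all genes given above, and the medians were -0.30, -0.28 and -0.35. Between the chip series 4 were lower in series B than in series A (2.03% of all genes), with a median of -0.23 beside -0.02 over all genes. *Mrpl12*, of the large subunit, was lower in all 3 (-0.89, -1.03 and -1.23). Of 43 assembly factors 3, 3 and 5 were lower and none higher, among them *Acad9* (-0.91) and *Tmem126b* (-1.02) of complex I assembly in *Pax1-/-Pax9-/-* cells, *Bcs1l* (-0.78), which inserts the Rieske protein into complex III, in *Pax1-/-Pax9+/-* cells, and *Surf1* (-0.89) of complex IV assembly against *Pax1-/-* cells. Of 13 electron carrier and coenzyme Q genes, 1 was lower in each: *Coq9*, needed to make coenzyme Q, in the first, and *Etfb*, of the electron transfer flavoprotein, in the other two. Medians in the 3 comparisons were -0.14, -0.17 and -0.15 for assembly factors and -0.23, -0.06 and -0.18 for electron carrier genes. In series B over series A these medians were -0.14 and -0.22.

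Among transcripts encoded in mitochondrial DNA, *ND6* was called higher in all 3 comparisons and *ND4L* lower in 1. Of 8 measured genes none was lower and *ND6* was higher in *Pax1-/-Pax9-/-* against *Pax1 WT:+/EGFP* cells (0.93 ± 0.21, adjusted p = 0.010), while the others lay between -0.32 and 0.08. In *Pax1-/-Pax9+/-* cells *ND4L* was lower (-0.66, adjusted p = 0.029) and *ND6* higher (0.74, adjusted p = 0.040), and against *Pax1-/-* cells only *ND6* was called (1.19, adjusted p = 0.0023). *ND6* is read from the other strand of the mitochondrial genome than the rest, and it was also higher in series B than in series A (0.82). Of 18 citric acid cycle genes 0, 0 and 1 were lower, the last being *Idh3g* (-0.59). Of 15 glycolysis genes the aldolase *Aldoa* was lower in all 3 comparisons (-0.71, -0.78 and -0.83) and *Tpi1* in the first and last (-0.67 and -0.69). Glycolysis medians were -0.08, 0.06 and -0.09 there, and -0.21 in series B over series A. Of 15 regulators of mitochondrial biogenesis only *Polrmt*, the mitochondrial RNA polymerase, was called, against *Pax1-/-* cells (-1.0). Over all genes 3.54% were called lower and 3.32% higher in the first comparison, 2.33% and 2.45% in the second, and 4.27% and 3.87% in the last. All 3 comparisons have their compound mutants on chip 1, and those of *Pax1-/-Pax9+/-* cells share the same arrays.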

How the data were processed

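Processed values of 28 Illumina MouseWG-6 arrays were used. The authors deposited a signal intensity and a detection p-value for each of 45281 probes, and used GeneSpring GX 12.5 for their own tests. Here intensities were background corrected (limma 3.58.1 in R 4.3.3, normexp, offset 16, background estimated from the deposited detection p-values), quantile normalized and taken to log2. Probes with a deposited detection p-value under 0.05 on at least 3 arrays were kept (27688, of which 22486 had 1 gene), and kept probes of a gene were averaged. Arrays with the same genotype and replicate name were averaged, giving 24 replicates of 6 groups. Fits used lmFit and eBayes. Genotypes were compared in a fit of all EGFP(+) genotypes, and the fit with EGFP(-) cells left out the compound mutants. The chip series were compared over arrays with genotype as a covariate. Fits with a chip or series block, and those on a single series, also took each array as a sample. The number of arrays limits the precision. The fit was also run on simulated data with known changes in *Pax1-/-Pax9-/-* cells. These held no chip effect, so they cannot tell chip from genotype.

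Named were up to 4 called members of each complex by adjusted p, the largest rise and fall, the complex IV isoforms, members without a kept probe and up to 4 called genes of each related list. Other called members are listed as well. Members and lists were chosen with earlier results of these data known. The alternatives were another background floor, scaling, probe choice, filter, block, sample unit, threshold and leaving out replicates. Leaving out chip 2 was chosen after seeing the data.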

Additional observations from a re-analysis of the deposited data

Results flagged for a closer look

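Over 27 named genes and the medians of the complexes, 99 groups of 5 replicates were searched for 1 replicate far from the others, and 10 had one, where chance gives about 1 in 20. In *Pax1 WT:+/EGFP* cells all 6 were B7, an array of chip 2: the complex I median at -0.26 (next 0.04), *Atp5h* at 8.58, *Ndufa11* at 8.12, *Ndufb3* at 6.87, *Ndufb7* at 6.67 and *Uqcr10* at 9.24, each below the other replicates. In *Pax1-/-* cells *Uqcr11* was low in B3 (7.94, next 8.57). In *Pax1+/-* cells B3 was low for the complex I median (0.073, next 0.17) and for *Sdha* (7.89), and B1 was high for *Atp5g2* (9.85).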

How the results depend on the processing

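Counts are of members called. Where no count over all genes is printed beside them, a change in them may not be particular to the members. DW stands for *Pax1-/-Pax9-/-* and TW for *Pax1-/-Pax9+/-* over *Pax1 WT:+/EGFP*, TK for *Pax1-/-Pax9+/-* over *Pax1-/-*, HW for *Pax1+/-* over *Pax1 WT:+/EGFP*, WG for *Pax1 WT:+/EGFP* over EGFP(-), and BA for chip series B over A. With chip as a random block the counts were 2 (DW), 0 (TW) and 12 (TK), with chip series as a fixed block 1, 0 and 0, and on series B alone 0, 0 and 0, where the DW median was -0.081. The compared groups alone gave 0 in DW and TW, as did the methods' tests after adjustment (11 and 12 lower before it). Over all 13373 genes those tests called 749 and 594 in either direction before adjustment, and 0 after it. Each array as its own sample gave 7 in DW, 4 in TW and 1 in WG. The fits with a chip or series block and those on series B alone also took arrays as samples. Their counts thus stand beside these and not beside those of the main fit. Centring arrays on their median moved the median of all genes by -0.11 (DW), -0.11 (TW), 0.13 (HW), -0.13 (TK) and -0.30 (BA), and the members' medians were then -0.40, -0.36, 0.41, -0.54 and -0.60, and -0.19 in WG. The counts became 9 in TW, 1 in HW, 1 in WG and 40 lower with 0 higher in BA. Over all genes that scaling called 651 lower and 163 higher in DW, 834 and 205 in TK and 3013 and 118 in BA, where quantile normalization called 473 and 444, 571 and 518, and 272 and 480. Without the fold threshold HW had 1, WG 2 and BA 19. A floor of 1 gave 1 in WG and a TK median of -0.36, cyclic loess 1 and -0.16 in WG, and the probe with the highest mean medians of -0.31 (TW) and -0.37 (TK). Without chip 2, chosen after seeing the data, DW had 20 and the TW median was -0.31. Replicate names did not pair samples of different groups (46 pairs, r -0.19 to 0.15), and a replicate block gave 16 (DW), 18 (TW), 19 (TK) and 1 (WG). In BA the block was genotype and replicate name together, which that check did not cover, and it gave 0. Leaving out single replicates gave 8 to 17 in DW (median -0.27 to -0.19), 4 to 20 in TW (-0.26 to -0.20), 16 to 24 in TK (-0.33 to -0.25), 0 to 2 in WG (-0.14 to -0.02), 9 to 12 in BA (-0.13 to -0.07) and 0 in the rest, with medians of 0.04 to 0.11 for *Pax1-/-* over *Pax1 WT:+/EGFP*, 0.12 to 0.21 for HW and -0.01 to 0.04 between the compound mutants. WG had 1 without EGFP(-) B2 or *Pax1 WT:+/EGFP* B2, and 2 without EGFP(-) B3 or *Pax1 WT:+/EGFP* B3 or B4. Signs turned for *Atp5a1* in HW with the highest probe (0.11), *Atp5g2* in TW with the series block (-0.083) and on series B alone (-0.13), *Uqcrh* in HW on series A alone (-0.0062) and *Atp5d* in DW on series B alone (0.14). Of 1444 settings of named genes 1211 kept direction and side of the threshold, 215 lost and 13 gained the call. Complex IV isoforms named only for their identity, in comparisons where they were not called, are outside this tally and the signs above. Their 1138 settings held 71 changes of sign and 2 calls. The causes were not tested.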
